A study of Mus musculus with 8 samples.

Results

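The genes examined here make amino acids, carry them into the cell and load them onto tRNA in RAW 264.7 cells, a mouse macrophage line, exposed to menthol, to LPS (lipopolysaccharide of the bacterial cell wall) or to both. The members were chosen by symbol and role, with earlier results of these data known. They came from a list of 22 genes, of which 21 were matched to a probe set. To these were added 19 cytosolic aminoacyl-tRNA synthetases found by the pattern of their symbols. This gave 40 of the 18193 genes on the array: 12 synthesis enzymes, 7 transporters, 19 synthetases, and the tRNA exporter Xpot and the translation regulator Eif4ebp1. After a filter on low signal, 39 of the 40 were among the 8908 genes tested. The member under the filter was Phgdh, which encodes the first enzyme of serine synthesis, with a log2 signal of 2.71 to 2.76 on all 8 arrays.

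RNA from 8 samples was measured on Affymetrix mouse arrays, 2 in each of 4 groups. Control cells are labelled as control only, M cells received menthol for 1 h, LPS cells received 100 ng/ml LPS for 6 h, and LPS+M cells received menthol for 1 h and then the same LPS treatment. All 4 groups were the same cell line in the same medium with fetal serum. The labels give neither the menthol dose nor the time at which control and M cells were harvested, so a difference in time between M or control cells and the LPS groups cannot be told apart from the treatment. The labels call the samples of a group biological replicates without saying whether they were separate cultures, so the p-values measure the spread between 2 arrays per group, which may be technical. With 2 arrays on each side no exact permutation p can be below 0.333, so the tests used were those of limma, which borrows the spread from all genes.

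All 8 macrophage markers examined (among them Csf1r, Cd68 and Lyz2) were above the filter, and the 6 matched markers of other cell types (T cells, epithelium, fibroblasts and endothelium) were under it, with mean log2 signals from 1.69 for Cd3e to 3.83 for Epcam. Of the macrophage markers, Adgre1 rose in LPS compared to control by 0.95 on the log2 scale and Fcgr1 fell by 0.89, and none was called in either menthol comparison. The median log2 signal of an array lay between 2.99 and 3.04. Arrays of the same group correlated at 0.9988 to 0.9994 over all probe sets and arrays of different groups at 0.9955 to 0.9981. In RNA from whole cultures, fewer cells of a kind and less RNA per cell cannot be told apart.

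As background, cells that run short of an amino acid, or whose endoplasmic reticulum is stressed, phosphorylate the initiation factor eIF2. This lowers protein synthesis in general and raises translation of the transcription factor ATF4. ATF4 pairs with C/EBP family proteins on a short promoter element, the C/EBP-ATF response element, and many genes for amino acid synthesis, amino acid uptake and tRNA charging are known targets. In macrophages, LPS is known to change the use of amino acids, most prominently arginine, tryptophan and cystine.

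The core of that element, TGATGNAA (TTNCATCA on the opposite strand), was searched on both strands in RefSeq promoters of assembly GRCm38.p6, each covering 250 bases before and 50 bases after the annotated start, and no other motif was searched. Of the 40 members, 29 had a promoter in this table, and 9 of the 29 (31%) held the core, beside 1219 of all 27025 genes (4.51%). The element is known from genes of this pathway, so these shares are a description and not a test. The share of all genes also takes in genes that were not tested for expression here. By class these were 3 of 11 synthesis enzymes (27.3%: Asns, Pck2 and Got1), 1 of 5 transporters (20%: Slc1a4) and 5 of 12 synthetases (41.7%: Aars, Gars, Iars, Tars and Yars), and Xpot did not hold it. None of the 14 mitochondrial synthetases with a promoter held it. The members without a promoter, which were not searched, were Cars, Cth, Eif4ebp1, Hars, Lars, Nars, Rars, Slc1a5, Slc7a5, Vars and Wars. Of these, Cars, Cth, Eif4ebp1 and Slc7a5 were called higher in M compared to control, as described below. Of the members called higher there that were searched, Asns, Pck2 and Slc1a4 held the core. Slc6a9 (log2 fold change 1.35) and Slc7a1 (0.72) did not hold it. Gpt2, Mthfd2, Aldh18a1, Slc3a2 and Slc38a2, called higher only in LPS+M compared to LPS, did not hold it either, while Aars and Yars, also called only there, did. A match describes letters in a window and is not a measured binding site, and a window without a match says only that these letters are not in it. The 6 promoter stretches below are those in which the core lies wholly before the annotated start. Fold changes did not enter this choice. In M compared to control, the log2 fold changes of these members ranged from 0.79 for Pck2 to 0.26 for Tars. Each is written 5′ to 3′ on the strand of its gene, with the core in capitals.
Asns, chr6:7693210-7693297, minus strand, motif 23 bases before the start: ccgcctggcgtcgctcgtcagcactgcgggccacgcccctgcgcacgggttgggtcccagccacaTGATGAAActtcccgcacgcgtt
Pck2, chr14:55540123-55540210, plus strand, motif 103 bases before the start: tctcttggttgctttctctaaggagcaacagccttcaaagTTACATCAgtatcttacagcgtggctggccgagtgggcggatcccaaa
Got1, chr19:43524660-43524747, minus strand, motif 102 bases before the start: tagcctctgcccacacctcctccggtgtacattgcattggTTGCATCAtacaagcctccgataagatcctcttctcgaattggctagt
Aars, chr8:111033690-111033777, plus strand, motif 112 bases before the start: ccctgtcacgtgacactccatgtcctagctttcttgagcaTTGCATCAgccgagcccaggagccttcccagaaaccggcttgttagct
Gars, chr6:55037913-55038000, plus strand, motif 30 bases before the start: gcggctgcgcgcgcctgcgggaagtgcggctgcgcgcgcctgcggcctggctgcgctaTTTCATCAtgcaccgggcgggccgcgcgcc
Tars, chr15:11399659-11399746, minus strand, motif 15 bases before the start: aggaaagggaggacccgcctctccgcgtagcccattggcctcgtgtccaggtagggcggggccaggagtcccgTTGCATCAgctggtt

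In Slc1a4 the core spans the annotated start, beginning 4 bases before it. In Iars and Yars it lies after the start, and Aars has a further match there. Asns carries the core in the direction of its gene (TGATGAAA), and the other 5 stretches carry it in the opposite direction, as TTGCATCA in Got1, Aars and Tars, TTTCATCA in Gars and TTACATCA in Pck2.

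The first comparison asks what menthol did to unstimulated cells. A gene was called where limma's Benjamini-Hochberg adjusted p over all 8908 genes was under 0.05 and the change was at least 1.5-fold, which are the meanings of rose and fell below. In M compared to control, 9 of the 39 members tested rose and none fell, beside 3.01% of all genes that rose and 1.54% that fell. With no fold minimum, 28 members were higher and 1 was lower (13.1% and 8.63% of all genes). The median log2 fold change was 0.39 over the members and 0.02 over all genes. The methods' t-test, at an unadjusted p and the same fold, also put 9 members higher and none lower. At limma's unadjusted p under 0.05, 29 members were higher and 2 were lower. For the methods' t-test and for unadjusted p-values, here and below, the share of all genes was not counted. Those counts therefore cannot be set against a background.

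The second comparison asks the same of cells that also received LPS. In LPS+M compared to LPS, 15 of 39 members rose and none fell, beside 4.22% and 2.49% of all genes. Without the fold minimum 27 members were higher and 1 lower (17.3% and 11.4% of all genes). The median was 0.43 over the members and 0.03 over all genes. The methods' t-test put 12 members higher and none lower, and limma's unadjusted p put 30 higher and 1 lower. Both arrays of M lay above both control arrays for 32 of the 39 members, and both arrays of LPS+M lay above both LPS arrays also for 32, beside 38.6% and 36% of all genes.

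**Figure D1:**
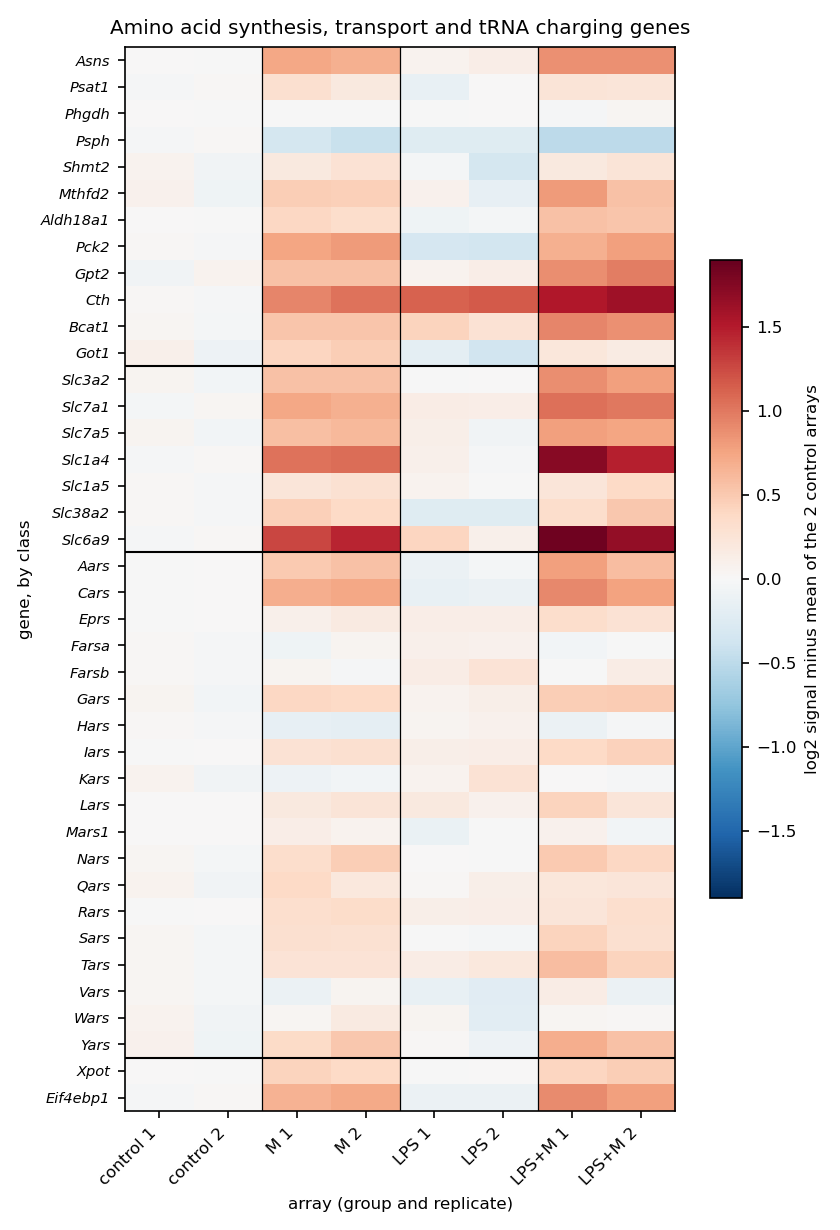
Log2 signal of the 40 members on each of the 8 arrays, as the difference from the mean of the 2 control arrays (colour scale in log2 units, red higher). Rows are ordered by class (synthesis enzymes, transporters, cytosolic synthetases, then Xpot and Eif4ebp1) and separated by lines. Most rows are red in the M and LPS+M columns and pale in the LPS columns. Cth is red in all 3 treated groups, and Psph is blue in them.

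Among the synthesis enzymes, 3 of 11 tested rose in M compared to control (Cth, Pck2 and Asns) and 5 rose in LPS+M compared to LPS (Pck2, Gpt2, Asns, Mthfd2 and Aldh18a1), and none fell. Of all genes, 3.01% and 4.22% rose in these comparisons. The class median was 0.46 in the first comparison and 0.55 in the second. Relative to the control mean, the class median of a single array was 0.47 and 0.47 in M, -0.04 and -0.03 in LPS, and 0.68 and 0.56 in LPS+M.

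Asns encodes asparagine synthetase, which makes asparagine from aspartate and glutamine. Its log2 signal was 12.68 and 12.67 on the control arrays, 13.41 and 13.35 in M, 12.74 and 12.80 in LPS, and 13.55 and 13.54 in LPS+M. The arrays with menthol lay above all arrays without it, and the groups with menthol did not overlap those without. Asns rose 1.63-fold in M compared to control (log2 fold change 0.70, SE 0.06, adjusted p 0.000432) and 1.71-fold in LPS+M compared to LPS (0.77, SE 0.06, adjusted p 0.000161). A further Asns probe set gave 0.68 and 1.00 and was called in both. The Asns promoter shown above holds the core 23 bases before the start.

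Pck2 encodes the mitochondrial phosphoenolpyruvate carboxykinase, which turns oxaloacetate into phosphoenolpyruvate. Its signal was 10.20 and 10.15 in control, 10.93 and 10.99 in M, 9.86 and 9.82 in LPS, and 10.85 and 10.95 in LPS+M. The LPS arrays were the lowest and the menthol arrays the highest, with no overlap between groups with and without menthol. Pck2 rose by 0.79 (SE 0.06, adjusted p 0.000386) in M compared to control and by 1.06 (SE 0.06, adjusted p 6.8e-05) in LPS+M compared to LPS, and its log2 fold change in LPS compared to control was -0.33 (adjusted p 0.00916), which is under the fold minimum.

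Gpt2 encodes the mitochondrial alanine aminotransferase. Its signal was 9.26 and 9.40 in control, 9.88 and 9.88 in M, 9.40 and 9.46 in LPS, and 10.22 and 10.30 in LPS+M. The LPS+M arrays were the highest, above those of M, and the LPS arrays lay at or just above the upper control array. Gpt2 was higher by 0.55 in M compared to control (SE 0.07, adjusted p 0.00211), short of the fold minimum, and rose by 0.83 in LPS+M compared to LPS (SE 0.07, adjusted p 0.000239). The other 3 Gpt2 probe sets above the filter, all of lower signal, gave 0.84, 1.03 and 1.24 in M compared to control and were called there.

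Mthfd2 encodes a mitochondrial folate enzyme that oxidises the carbon unit released from serine. Its signal was 12.98 and 12.81 in control, 13.37 and 13.35 in M, 12.98 and 12.74 in LPS, and 13.70 and 13.45 in LPS+M. The arrays with menthol did not overlap those without, although the replicates of LPS and of LPS+M lay further apart than those of M. The log2 fold change was 0.46 (SE 0.11, adjusted p 0.0241) in M compared to control and 0.72 (SE 0.11, adjusted p 0.00331) in LPS+M compared to LPS, and only the second passed the fold minimum.

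Aldh18a1 encodes the enzyme that starts proline synthesis from glutamate. Its signal was 10.93 and 10.92 in control, 11.32 and 11.26 in M, 10.84 and 10.89 in LPS, and 11.48 and 11.45 in LPS+M. The LPS+M arrays were the highest and the groups with and without menthol did not overlap. The change in LPS+M compared to LPS was 0.60 (SE 0.06, adjusted p 0.000515), just above the fold minimum. It fell below the minimum with the mean of all probe sets (0.56), with quantile normalization (0.58), without LPS replicate 1 (0.57) and without LPS+M replicate 1 (0.58).

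Cth encodes cystathionine gamma-lyase, which makes cysteine from cystathionine. Its signal was 10.98 and 10.93 in control, 11.88 and 11.99 in M, 12.07 and 12.12 in LPS, and 12.48 and 12.57 in LPS+M. Each treated group lay above control, the LPS arrays lay above those of M, the LPS+M arrays were the highest, and no group overlapped another. Cth rose by 0.98 in M compared to control (SE 0.07, adjusted p 0.000189). In LPS compared to control it rose by 1.14 (SE 0.07, adjusted p 3.1e-05). In LPS+M compared to LPS it was higher by 0.43 (SE 0.07, adjusted p 0.00331), under the fold minimum.

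Of the synthesis enzymes not called in either menthol comparison, Bcat1 (branched-chain aminotransferase) changed by 0.52 in M compared to control and 0.55 in LPS+M compared to LPS, and Got1 (cytosolic aspartate aminotransferase) by 0.44 and 0.46. Both had adjusted p-values under 0.05 without reaching 1.5-fold. Smaller values came from the serine pathway, with 0.25 and 0.31 for Psat1 (phosphoserine aminotransferase) and 0.22 and 0.40 for Shmt2, the mitochondrial enzyme that splits serine. Psph, the phosphatase of the last step of serine synthesis, was the 1 member lower at the adjusted p in both, at -0.38 (adjusted p 0.00475) and -0.27 (adjusted p 0.0137).

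**Figure D2:**
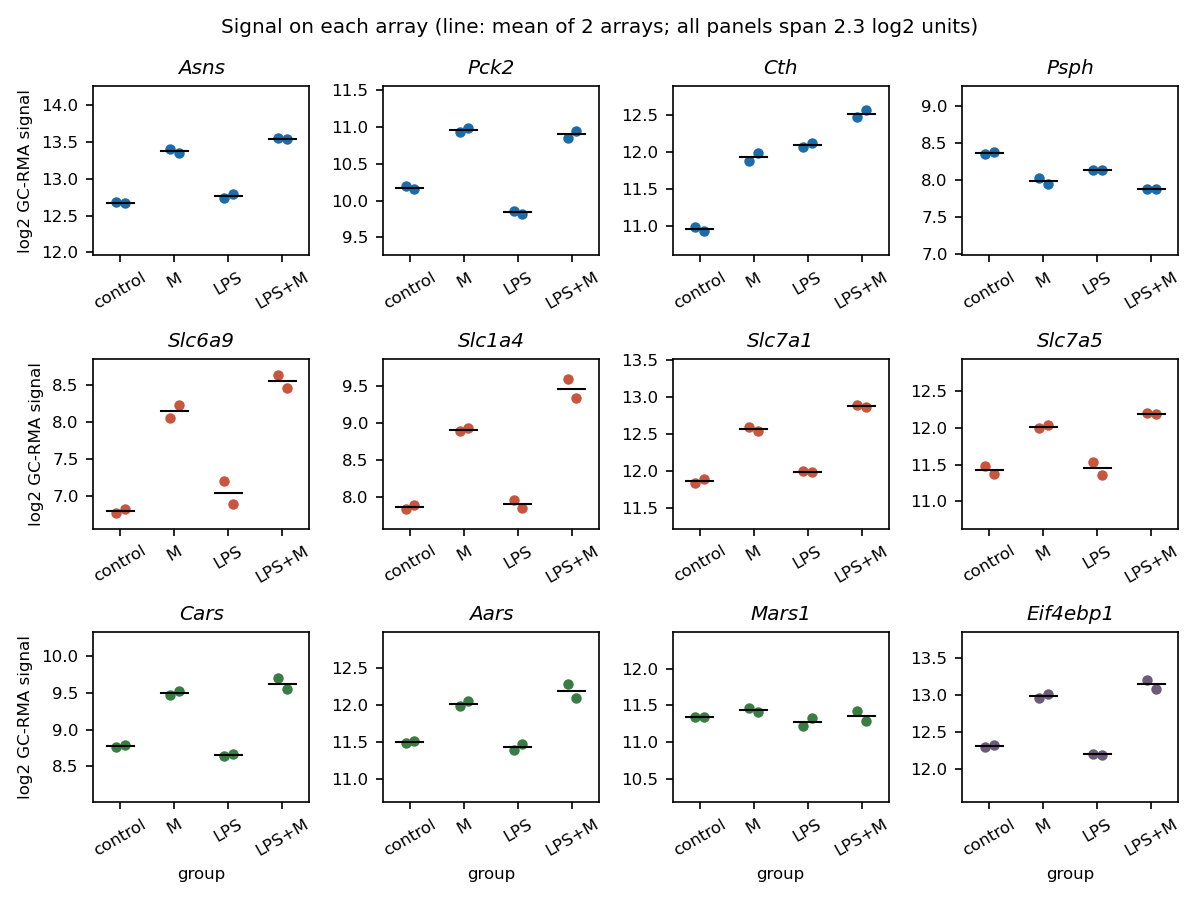
Log2 GC-RMA signal (vertical axis) of 12 members on each array by group (horizontal axis), each point 1 array and each line the mean of the 2 arrays of a group, with every panel spanning the same number of log2 units. The signals of Asns, Pck2, Slc6a9, Slc1a4, Slc7a1, Slc7a5, Cars, Aars and Eif4ebp1 are higher in M and LPS+M than in control and LPS. Cth is high in all 3 treated groups, Psph is lower in M than in control, and Mars1, a synthetase that was not called, has means that differ little between groups.

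The transporters had the largest class median of the 3 classes in both menthol comparisons, and no test was made between classes. In M compared to control, 4 of 7 rose (Slc6a9, Slc1a4, Slc7a1 and Slc7a5), and the median was 0.59. In LPS+M compared to LPS, 6 of 7 rose and the median was 0.83. None fell in either, and 3.01% and 4.22% of all genes rose. Relative to the control mean, the median of a single array was 0.56 and 0.61 in M, 0.09 and -0.01 in LPS, and 0.88 and 0.78 in LPS+M. All 7 were higher in both comparisons at the adjusted p alone (13.1% and 17.3% of all genes). Both menthol arrays lay above both arrays without it for all 7, beside 38.6% and 36% of all genes.

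Slc6a9 encodes the glycine transporter GlyT1. Its log2 signal was 6.77 and 6.82 in control, 8.06 and 8.24 in M, 7.20 and 6.89 in LPS, and 8.64 and 8.47 in LPS+M. All 4 arrays with menthol lay above every array without it, and the LPS arrays lay slightly above control. Slc6a9 rose 2.55-fold in M compared to control (log2 fold change 1.35, SE 0.12, adjusted p 0.000467) and 2.83-fold in LPS+M compared to LPS (1.5, SE 0.12, adjusted p 0.000164).

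Slc1a4 encodes ASCT1, a carrier of alanine, serine and cysteine. Its signal was 7.84 and 7.89 in control, 8.90 and 8.93 in M, 7.96 and 7.85 in LPS, and 9.60 and 9.34 in LPS+M. The M arrays lay above control, the LPS arrays overlapped control, and the LPS+M arrays lay above those of M. The log2 fold change was 1.05 (SE 0.09, adjusted p 0.000489) in M compared to control and 1.57 (SE 0.09, adjusted p 6.1e-05) in LPS+M compared to LPS, the largest among the members in that comparison. A further Slc1a4 probe set of low signal gave 1.71 and 2.20 and was called in both, and another gave 0.83 and 0.77 and was called in neither.

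Slc7a1 encodes the cationic amino acid transporter CAT1, which takes up arginine and lysine. Its signal was 11.83 and 11.89 in control, 12.60 and 12.54 in M, 12.00 and 11.98 in LPS, and 12.90 and 12.86 in LPS+M. The groups with menthol lay above those without, and LPS+M lay above M. Slc7a1 rose by 0.72 (SE 0.06, adjusted p 0.000435) and 0.89 (SE 0.06, adjusted p 0.000122) in the menthol comparisons without and with LPS. With its 3 probe sets averaged, these were 0.49 and 0.57 and neither reached the fold minimum, while the other probe set above the filter gave 0.73 and 0.82 and was called in both.

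Slc7a5 (LAT1) and Slc3a2 (CD98 heavy chain) encode the subunits of the carrier that brings in leucine and other large neutral amino acids. The signal of Slc7a5 was 11.48 and 11.37 in control, 11.99 and 12.04 in M, 11.54 and 11.36 in LPS, and 12.20 and 12.18 in LPS+M. That of Slc3a2 was 11.59 and 11.49 in control, 12.09 and 12.10 in M, 11.53 and 11.55 in LPS, and 12.42 and 12.32 in LPS+M. For both subunits the LPS arrays overlapped control or lay within its range, the arrays with menthol lay above all without it, and LPS+M lay above M. Slc7a5 rose by 0.59 in M compared to control (SE 0.08, adjusted p 0.00247) and by 0.74 in LPS+M compared to LPS (SE 0.08, adjusted p 0.000624). The first of these was at the fold minimum and passed under it without control replicate 2 (0.53) and without M replicate 2 (0.56). Slc3a2 was higher by 0.56 (adjusted p 0.00164), under the fold minimum, and rose by 0.83 (SE 0.07, adjusted p 0.000192).

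Slc38a2 encodes SNAT2, a sodium-dependent carrier of small neutral amino acids. Its signal was 13.88 and 13.83 in control, 14.31 and 14.24 in M, 13.63 and 13.63 in LPS, and 14.19 and 14.37 in LPS+M. LPS was lower than control and the arrays with menthol were higher than both, with M and LPS+M overlapping. The change was 0.42 (SE 0.07, adjusted p 0.00699) in M compared to control and 0.65 (SE 0.07, adjusted p 0.0009) in LPS+M compared to LPS, where only the second was called. With the mean of all probe sets, which takes in a probe set under the filter, it was 0.26. Without LPS+M replicate 2 it was 0.56, and both values lay under the fold minimum. Slc1a5 (ASCT2, a glutamine carrier) was not called in either, at 0.26 and 0.27.

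The cytosolic synthetases join each amino acid to its tRNA, and their changes were smaller. In M compared to control 1 of 19 rose (Cars), and in LPS+M compared to LPS 3 of 19 rose (Cars, Aars and Yars), and none fell. The share of the first, 1 of 19, is near the 3.01% of all genes that rose, and 4.22% of all genes rose in the second. The class median was 0.26 and 0.19 in these comparisons. At the adjusted p alone, 10 and 8 of the 19 were higher and none was lower, beside 13.1% and 17.3% of all genes that were higher. Relative to the control mean, the median of an array was 0.27 and 0.24 in M, 0.05 and 0.08 in LPS, and 0.33 and 0.26 in LPS+M.

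Cars charges tRNA with cysteine. Its signal was 8.77 and 8.79 in control, 9.47 and 9.52 in M, 8.64 and 8.67 in LPS, and 9.70 and 9.55 in LPS+M. The LPS arrays were the lowest and no array with menthol overlapped one without it. Cars rose by 0.72 (SE 0.07, adjusted p 0.000665) in M compared to control and by 0.97 (SE 0.07, adjusted p 0.000128) in LPS+M compared to LPS. With its 2 probe sets averaged the first was 0.36 and not called, but the other probe set was under the filter.

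Aars charges tRNA with alanine. Its signal was 11.49 and 11.51 in control, 11.99 and 12.05 in M, 11.39 and 11.47 in LPS, and 12.28 and 12.09 in LPS+M, so that every array with menthol lay above those without it. The change was 0.52 (SE 0.08, adjusted p 0.00393), under the fold minimum, in M compared to control and 0.75 (SE 0.08, adjusted p 0.000618) in LPS+M compared to LPS. Yars charges tRNA with tyrosine. Its signal was 8.78 and 8.61 in control, 9.06 and 9.20 in M, 8.72 and 8.60 in LPS, and 9.39 and 9.25 in LPS+M. The LPS arrays overlapped control and the LPS+M arrays were the highest. The change of Yars was 0.43 (SE 0.09, adjusted p 0.0141) in M compared to control and 0.66 (SE 0.09, adjusted p 0.00207) in LPS+M compared to LPS. The second fell to 0.58, under the fold minimum, without LPS+M replicate 1.

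Below the fold minimum but with an adjusted p under 0.05 in M compared to control were Nars (0.41), Gars (0.39), Rars (0.33), Sars (0.30), Iars (0.29), Qars (0.29) and Tars (0.26), the enzymes for asparagine, glycine, arginine, serine, isoleucine, glutamine and threonine. A further Nars probe set gave 0.59 and was called in that comparison, and gave 0.58, under the fold minimum, in LPS+M compared to LPS. In LPS+M compared to LPS these 7 genes had 0.45, 0.39, 0.15, 0.38, 0.31, 0.16 and 0.34, and of them Rars and Qars did not pass there. The remaining 9 synthetases (Eprs, Farsa, Farsb, Hars, Kars, Lars, Mars1, Vars and Wars) passed in neither. They lay between -0.16 (Hars) and 0.22 (Lars) in M compared to control, and between -0.18 (Kars) and 0.21 (Lars) in LPS+M compared to LPS.

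Some synthetases work inside a large multi-synthetase complex. The members that do so, a grouping made after their values were seen, were Eprs, Iars, Kars, Lars, Mars1, Qars and Rars. They lay between -0.07 and 0.33 in M compared to control and between -0.18 and 0.31 in LPS+M compared to LPS. None was called, beside 3.01% and 4.22% of all genes that rose and 1.54% and 2.49% that fell. Among so few genes a count of 0 is near those shares. At the adjusted p alone, Iars, Qars and Rars were higher in M compared to control, and Iars also in LPS+M compared to LPS. Of the 12 members outside the complex, Cars, Aars and Yars were called in at least 1 menthol comparison and 9 in neither. At the adjusted p alone, Aars, Cars, Gars, Nars, Sars, Tars and Yars were higher in both, beside 13.1% and 17.3% of all genes. No test was made between inside and outside. The 3 scaffold proteins of the complex (Aimp1, Aimp2 and Eef1e1) were not called in any of the 4 comparisons of groups. At the adjusted p alone, 1 was lower in M compared to control and 2 in LPS+M compared to LPS (8.63% and 11.4% of all genes). In LPS compared to control 1 was higher (9.13% of all genes).

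Xpot encodes exportin-T, which carries mature tRNA out of the nucleus. Its signal was 12.54 and 12.53 in control, 12.96 and 12.92 in M, 12.53 and 12.54 in LPS, and 12.95 and 13.01 in LPS+M. The values without menthol were nearly equal and all lay below those with it. The change was 0.41 (SE 0.06, adjusted p 0.00321) and 0.45 (SE 0.06, adjusted p 0.00148), under the fold minimum in both menthol comparisons. The other 2 Xpot probe sets above the filter did not show it, with -0.08 and -0.06 in M compared to control and -0.04 and -0.06 in LPS+M compared to LPS.

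Eif4ebp1 encodes 4E-BP1, which binds the cap-binding factor eIF4E and holds back translation when mTORC1 is inactive. Its signal was 12.29 and 12.32 in control, 12.96 and 13.02 in M, 12.20 and 12.19 in LPS, and 13.21 and 13.08 in LPS+M. LPS was slightly below control, M was above both, and LPS+M was the highest, without overlap. Eif4ebp1 rose by 0.68 (SE 0.07, adjusted p 0.000672) in M compared to control and by 0.95 (SE 0.07, adjusted p 0.000124) in LPS+M compared to LPS. A further probe set gave 0.86 and 1.04 and was called in both. With the mean of all probe sets, which takes in a probe set under the filter, the first change was 0.57, under the fold minimum.

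The menthol comparisons share no array, so their values can be set side by side. Of the 9 members that rose in M compared to control, 8 (88.9%) also rose in LPS+M compared to LPS, which is 53.3% of the 15 that rose there, and the exception was Cth. Over all genes, 185 rose in both, 69% of the first list and 49.2% of the second. The log2 fold changes had the same sign for 37 of 39 members (94.9%) and for 79.1% of all genes. Pearson's r across the 39 members was 0.91 and across all genes 0.78. Genes measured on the same arrays are not independent replicates, and r is given as a description.

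**Figure D3:**
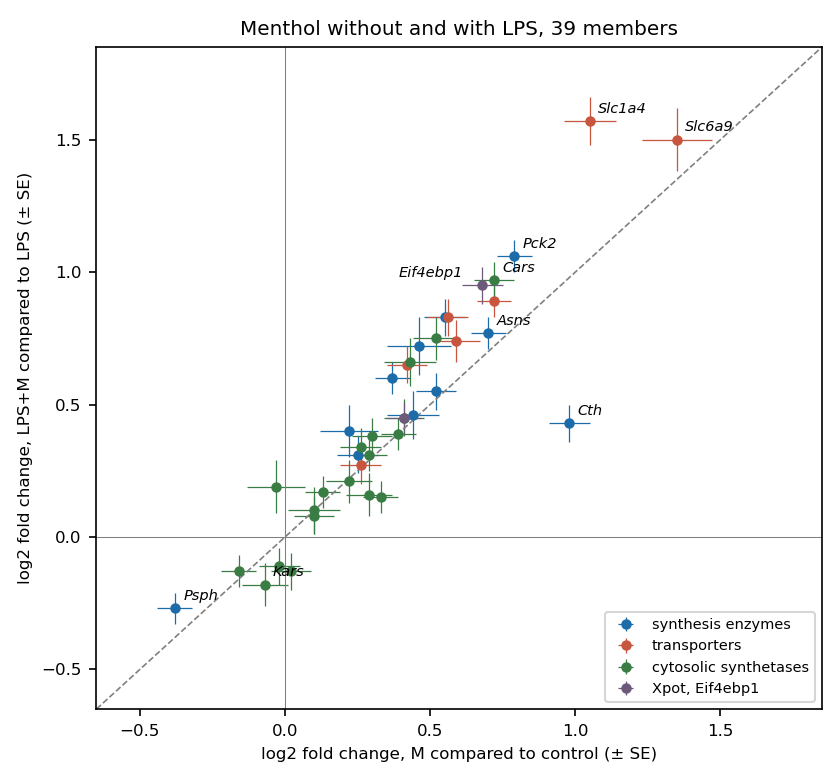
Log2 fold change of each of the 39 members tested in M compared to control (horizontal axis) and in LPS+M compared to LPS (vertical axis), with bars of 1 SE and a dashed line of equal change. Points are coloured by class, and 30 of the 39 lie above the line. Slc6a9 and Slc1a4 lie furthest to the upper right, Cth lies below the line at 0.98 and 0.43, and Psph lies in the lower left.

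Whether the response to menthol differed with LPS was tested by the interaction term, the log2 fold change in LPS+M compared to LPS minus that in M compared to control. No member was called, beside 0.0337% of all genes that were called higher and 0.202% lower. At limma's unadjusted p under 0.05, 7 members were higher and 1 was lower. The term was above 0 for 30 of 39 members (76.9%) and for 51.7% of all genes, and for 7 of 7 transporters. Its largest positive value was 0.52 for Slc1a4 (SE 0.13, 95% confidence interval 0.22 to 0.82, adjusted p 0.205), followed by 0.28 for Gpt2 (0.06 to 0.51, adjusted p 0.357). Its most negative was -0.55 for Cth (SE 0.10, interval -0.77 to -0.33, adjusted p 0.098). None of these passed the adjusted threshold, which does not show that the menthol response was equal with and without LPS.

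The third comparison asks what LPS did alone. In LPS compared to control, 1 of 39 members rose (Cth) and none fell, beside 3.17% and 2.96% of all genes. With no fold minimum, 2 members were higher (Cth and Bcat1) and 2 lower (Pck2 and Psph), beside 9.13% and 12.6% of all genes. The methods' t-test with the same fold put 1 higher and none lower, and limma's unadjusted p put 4 on each side. The medians were -0.06 for synthesis enzymes, 0.03 for transporters and 0.07 for synthetases, with -0.03 over all genes. The transporters lay between -0.22 (Slc38a2) and 0.25 (Slc6a9), and the synthetases between -0.17 (Vars) and 0.20 (Farsb).

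In LPS+M compared to M, 1 of 39 members rose (Cth, by 0.59, SE 0.07, adjusted p 0.00116) and none fell, beside 2.39% and 1.77% of all genes. The Cth call was lost without M replicate 1 (0.54), without LPS+M replicate 2 (0.55) and after the arrays were shifted to a common median (0.58). With no fold minimum 6 members were higher (Cth, Slc1a4, Gpt2, Bcat1, Slc7a1 and Slc3a2) and none lower, beside 6.54% and 7.69% of all genes. The methods' t-test with the same fold put 1 higher and none lower, and limma's unadjusted p put 12 higher and 1 lower. The medians were 0.17 for synthesis enzymes, 0.27 for transporters and 0.06 for synthetases, with -0.03 over all genes. This comparison and LPS compared to control share no array. Over the 39 members their log2 fold changes had the same sign for 64.1% and r was 0.65, while over all genes the values were 75.1% and 0.82.

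Other genes of the same functions were counted from lists set by role, also with earlier results of these data known. Their contrast with the members is therefore a description and not a test. Of the 16 mitochondrial synthetases on the array, which charge tRNA inside mitochondria, 13 were tested. None was called in M compared to control or in LPS+M compared to LPS, and the medians were -0.15 and -0.03. Of all genes, 3.01% and 4.22% rose and 1.54% and 2.49% fell in these comparisons. At the adjusted p alone, none was higher in either (13.1% and 17.3% of all genes). In LPS+M compared to LPS 2 were lower (11.4% of all genes). Of the other folate and amino acid enzymes, 14 were tested and none was called in either menthol comparison, with medians of -0.09 and -0.07. In lists this short, a count of 0 called is near the shares of all genes. At the adjusted p alone none of these was higher, and 2 and 4 were lower, beside 8.63% and 11.4% of all genes.

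Of 20 other amino acid transporters tested, 1 rose in each menthol comparison and none fell, with medians of -0.03 and -0.17. That count is near the 3.01% and 4.22% of all genes that rose. At the adjusted p alone, 2 and 2 were higher and 4 and 7 were lower (8.63% and 11.4% of all genes were lower). The one that rose was Slc7a11 (xCT), the exchanger that takes up cystine and releases glutamate. Its log2 signal was 6.24 and 6.63 in control, 9.44 and 9.40 in M, 8.65 and 8.64 in LPS, and 10.88 and 10.79 in LPS+M. Each treatment lay well above control and the combination was the highest, the order seen for Cth, except that M lay above LPS. Slc7a11 rose 7.95-fold in M compared to control, 4.63-fold in LPS compared to control and 4.57-fold in LPS+M compared to LPS (log2 fold changes 2.99, 2.21 and 2.19, SE 0.12 each). Slc7a2, which encodes the arginine transporter CAT2, rose by 1.06 in LPS compared to control and was not called in the menthol comparisons.

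Of 18 regulators of the integrated stress response, the pathway of eIF2 and ATF4, 6 rose in M compared to control and 8 rose in LPS+M compared to LPS, and none fell, with medians of 0.46 and 0.54. Of all genes, 3.01% and 4.22% rose and 1.54% and 2.49% fell. At the adjusted p alone, 11 and 12 were higher and 1 and 0 were lower. Of all genes, 13.1% and 17.3% were higher there, and 8.63% and 11.4% were lower. The lower regulator was Atf3, at -0.39 in M compared to control (adjusted p 0.022). The eIF2 kinases (Eif2ak1, Eif2ak2, Eif2ak3 and Eif2ak4) and Gcn1 were not called in either menthol comparison. Of them, only Eif2ak1 passed the adjusted p, in LPS+M compared to LPS (0.53, adjusted p 0.0153), where it was under the fold minimum. The largest change was that of Trib3, a pseudokinase that restrains ATF4. Its signal was 9.06 and 9.28 in control, 11.07 and 11.08 in M, 8.32 and 8.46 in LPS, and 10.89 and 11.06 in LPS+M. The LPS arrays lay below control and the arrays with menthol above both. Trib3 rose by 1.91 (SE 0.10, adjusted p 8.9e-05) in M compared to control and by 2.58 (SE 0.10, adjusted p 2.7e-05) in LPS+M compared to LPS, and fell by 0.77 in LPS compared to control.

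The transcription factor Atf5 rose by 1.25 in M compared to control and by 1.5 in LPS+M compared to LPS, the transcriptional regulator Nupr1 by 1.10 and 1.51, and the glutathione-degrading enzyme Chac1 by 1.09 and 1.92. Atf4 itself, named here because of the promoter element although it falls outside the rule for this list, had 0.48 in M compared to control, under the fold minimum, and 0.68 in LPS+M compared to LPS (SE 0.09, adjusted p 0.00143), where it was called. In LPS compared to control, 2 of the 18 rose (Impact, an inhibitor of the eIF2 kinase GCN2, by 1.11, and Cebpb, by 0.68) and 2 fell (Trib3, and Chac1 by 0.60). Of all genes, 3.17% rose and 2.96% fell in that comparison.

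**Figure D4:**
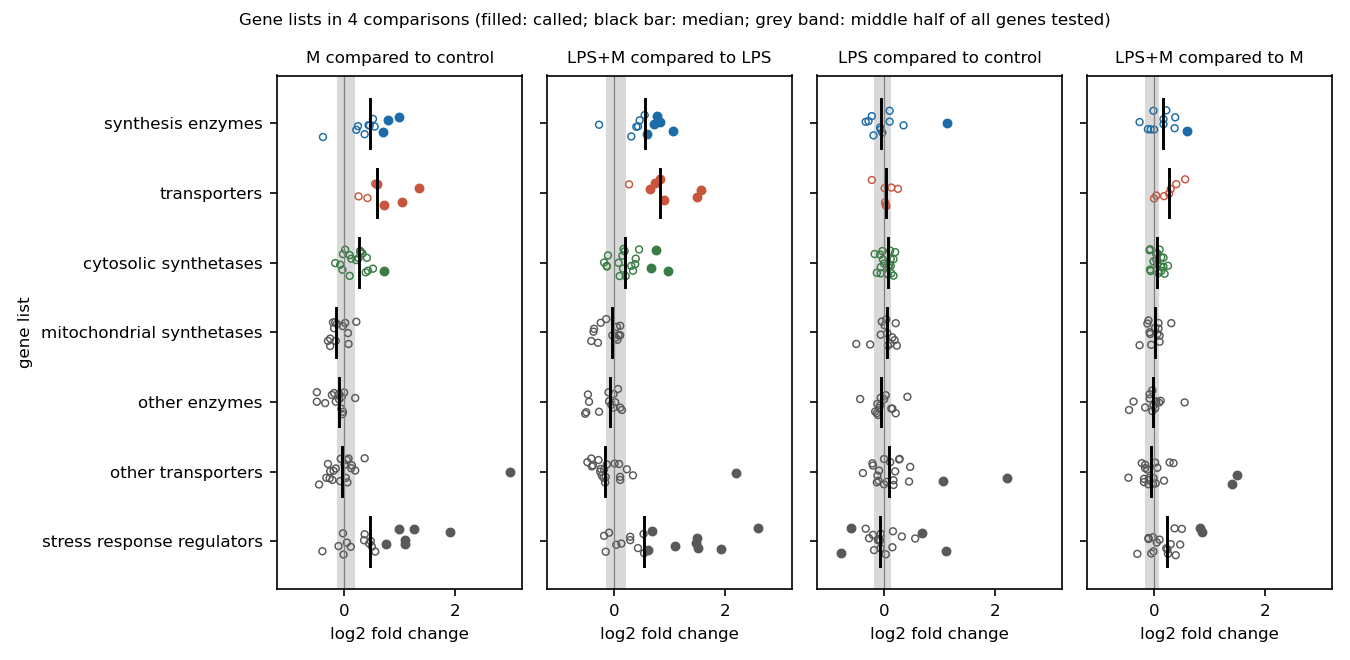
Log2 fold change (horizontal axis) of each gene tested, by list (vertical axis), in the 4 comparisons between groups. Filled points were called, black bars are list medians, and the grey band holds the middle 50% of all genes tested. In the panels of the menthol comparisons, the medians of synthesis enzymes, transporters, cytosolic synthetases and stress response regulators lie to the right of 0 (0.46, 0.59, 0.26 and 0.46 in the first), and those of mitochondrial synthetases, other enzymes and other transporters lie at or left of it. In LPS compared to control all medians lie close to 0, and of the 3 member classes only Cth is filled.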

How the data were processed

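Total RNA of 8 RAW 264.7 samples was hybridised to Affymetrix arrays. The deposited log2 values were made by the authors with GC-RMA (R 2.6.1 and GCRMA 2.10.0 per the labels), which corrects background, normalizes between arrays and summarises probes. No scanner files or detection calls were used. Precision is limited by the number of arrays.

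Of 45101 probe sets, 34945 had a single symbol, 932 several, 9160 none and 64 were controls. Symbols were updated through gene IDs for 34741 probe sets (RefSeq, GRCm38.p6). For each of 18193 genes the probe set with the highest mean was kept, and genes were tested where that mean exceeded 4.84, the average over every probe set, which left 8908. Pycr1 and cytosolic Dars were not analysed here.

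All 4 groups were fitted together with lmFit and eBayes (limma 3.58.1, R 4.3.3, 4 residual and 3.778 prior degrees of freedom), and the code was tested on simulated data. Calls needed a p under 0.05 after Benjamini-Hochberg adjustment over all genes tested together with a change of 1.5-fold or more. A fold is that of GC-RMA signal. Values on every array are given for up to 6 called members per class with the largest change in a menthol comparison, for any member called in the interaction, and for Xpot and Eif4ebp1. Up to 4 called genes of each other list are named. The members and lists were chosen with earlier results of these data known. Of 93 probe sets of members 75 passed the filter, and 13 members had 1 probe set. Fitting each probe set by itself was added after seeing the data. The alternatives were other probe set choices, filters, normalizations, tests, fold minimums, a replicate block, only the groups compared, and leaving out each array.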

Additional observations from a re-analysis of the deposited data

How the results depend on the processing

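Each group held 2 arrays, and GC-RMA gives no detection call, so the level at which a change in a weak gene could be seen is unknown. Over the single members in all comparisons, 65 of the alternative values lost a call, 48 gained one and none reversed. The replicate numbers of the labels did not pair the arrays (the correlation of deviations between groups was -0.121 to 0.186), and with a replicate block 9 members rose in M compared to control and 15 in LPS+M compared to LPS, the counts without it. With at least 1 probe set called, each taken by itself, the counts were 11 and 15.

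After Benjamini-Hochberg adjustment the methods' t-test called 0 members in each of the 4 comparisons of groups. With no fold minimum the members called higher were 28 in M compared to control, 27 in LPS+M compared to LPS, 2 in LPS compared to control and 6 in LPS+M compared to M, and those called lower were 1, 1, 2 and 0. At 2-fold the members higher were 2, 3, 1 and 0 in the same order. For the alternatives of this section other than no fold minimum, the share of all genes called is not given. The member counts under them cannot be set against a background. Shifting each array to the same median left 0 in LPS+M compared to M. Leaving out 1 array gave 8 to 10 in M compared to control, 13 to 15 in LPS+M compared to LPS, and 0 to 1 in LPS+M compared to M.

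With the mean of all probe sets the median of synthesis enzymes in LPS+M compared to LPS was 0.46, and that of transporters was 0.08 in LPS compared to control, 0.74 in LPS+M compared to LPS and 0.18 in LPS+M compared to M. Without the filter the median of synthesis enzymes in LPS+M compared to M was 0.09. With the probe set of largest variance the median of synthetases was 0.29 in LPS+M compared to LPS and 0.10 in LPS+M compared to M. Leaving out 1 array moved the median of synthesis enzymes from 0.38 to 0.53 in M compared to control, 0.48 to 0.58 in LPS+M compared to LPS and 0.10 to 0.20 in LPS+M compared to M. It moved that of transporters from -0.01 to 0.09 in LPS compared to control. It moved that of synthetases from 0.23 to 0.28 in M compared to control, 0.17 to 0.28 in LPS+M compared to LPS, 0.03 to 0.10 in LPS compared to control and 0.05 to 0.09 in LPS+M compared to M. The cause was not tested.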

Other observations

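Genes of amino acid sensing by mTORC1, the kinase complex whose activity releases translation from 4E-BP1, were not members and were counted separately. Of 21 tested, 3 rose and 1 fell in M compared to control, and 2 rose and 1 fell in LPS+M compared to LPS. Of all genes, 3.01% rose and 1.54% fell in the first and 4.22% and 2.49% in the second. Ddit4 (REDD1), an inhibitor of mTORC1, had log2 signals of 6.64 and 6.93 in control, 9.19 and 9.21 in M, 6.05 and 6.04 in LPS, and 9.14 and 9.12 in LPS+M. The 4 arrays with menthol lay close together and far above the rest, and LPS lay below control. Ddit4 rose 5.33-fold in M compared to control (log2 fold change 2.42, SE 0.09, adjusted p 2.7e-05) and 8.47-fold in LPS+M compared to LPS (3.08, SE 0.09, adjusted p 9e-06), and fell by 0.74 in LPS compared to control. The leucine sensor Sesn2, which also stands in the list of stress response regulators, rose by 0.76 and 1.48 in the menthol comparisons, while its relative Sesn1 fell by 0.70 and 0.82. The arginine sensor Castor1 rose by 1.03 in M compared to control, was not called in LPS+M compared to LPS (0.20, adjusted p 0.275), and fell by 0.68 in LPS+M compared to M (adjusted p 0.012).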
